A study of Mus musculus with 8 samples.

Results

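The cytosolic ribosomal protein genes were described in sciatic nerve, a peripheral nerve in which Schwann cells wrap axons in myelin. The members were the genes whose symbol reads Rpl or Rps with a number (with an ending in a, x or l where there is one), Rplp0, Rplp1 or Rplp2, or Rpsa, and whose mean level over the 8 libraries was at least 1 FPKM. FPKM is a fragment count scaled to transcript length and library size, so levels of different genes can be compared per length. Of 83 genes with such a symbol, 80 were members, out of 12530 genes at that level and 23356 genes in the table. They comprised 48 genes of the large 60S subunit and 32 of the small 40S subunit. The nearest genes on either side of the limit were Rpl34 at a mean of 4.41 FPKM and Rps27 at 9.90 inside it, and Rpl3l at 0.265, Rpl39l at 0.134 and Rpl10l at 0 outside it.

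The RNA came from mice aged 30 days, all F1 animals of the strains C57BL/6 and FVB/N, with 2 libraries for each of 4 genotypes. These were wild type (WT), mice with a mutant P0 allele (Q215X/+), mice with a transgene for HA-tagged neuregulin 1 type III (HA-NRG1 type III/+), and mice with both (HA-NRG1 type III/+:Q215X/+, below "the double"). Neuregulin 1 type III is the axonal signal that sets how much myelin a Schwann cell makes. The sources used here name neither the promoter of the transgene nor whether a library held 1 animal or a pool. Every genotype had a column ending in 0 and a column ending in 1, called set 0 and set 1 here. What the endings stand for is not given, and no label says that the libraries came from separate animals. Only the HA-NRG1 type III/+ libraries, which differed in sex (below), can be said to come from different animals. A p-value therefore reflects no more than how far these 8 libraries lie apart, which may be technical.

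A ribosome carries 1 copy of nearly every one of these proteins, so the genes are usually expressed at matched levels. Their mRNAs typically begin with a C followed by a run of C and T, the 5′ terminal oligopyrimidine (TOP) tract, through which mTORC1, acting by way of LARP1, controls how strongly they are translated. A myelinating Schwann cell makes large amounts of protein and lipid, and mTORC1 lies downstream of neuregulin signalling in that cell. FPKM measures mRNA abundance and not translation.

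The TOP tract is the sequence feature that these genes are known to share. RefSeq promoters of build GRCm38.p6 were matched for 60 of the 80 members and gave 71 annotated starts. A C followed by at least 4 further C or T began exactly at the annotated start in 13 of the 71 (18.3%), against 2.51% of 32851 promoters of all genes. With the start allowed to shift by up to 5 bases the shares were 43.7% and 18.4%. None of the 75 promoters of mitochondrial ribosomal proteins had the tract at the annotated start, and 22.7% had it with the shift. Genes known to carry a TOP tract without encoding a ribosomal protein had it in 3 of 11 promoters at the annotated start (27.3%) and in 36.4% with the shift. Each line below gives 15 bases before the annotated start and 15 from it on, with the tract in capitals, for members of both subunits that are described below or have a long tract.
Rpl15: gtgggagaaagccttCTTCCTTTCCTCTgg
Rpl35: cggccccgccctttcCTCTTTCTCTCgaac
Rpl28: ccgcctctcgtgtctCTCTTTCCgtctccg
Rps10: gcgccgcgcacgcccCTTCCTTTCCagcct
Rps18: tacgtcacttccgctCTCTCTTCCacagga
Rps6: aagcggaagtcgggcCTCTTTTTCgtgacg

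Rps6, the target of the S6 kinases, starts on chromosome 4, and its window covers chr4:86857353-86857382 on the minus strand. The Rpl15 window is chr14:18270972-18271001 on the minus strand, and its tract of 13 bases is the longest among the members. In the 300 bases around the start, from 250 before to 50 after and on either strand, the letters AAGATGGC (the core of the YY1 motif) were found in 11.3% of member promoters and 2.75% of all promoters. The remaining letters were searched, for all promoters, only in the 250 bases before the start, also on either strand. CCGGAAG, an ETS motif, was found in 26.8% and 6.91%, GGGCGG, an SP1 motif, in 49.3% and 32.7%, and TATAAA in 5.63% and 12.4%. Promoters of mitochondrial ribosomal proteins held the YY1 letters in 12 of 75 (16%), the ETS letters in 24%, the SP1 letters in 49.3% and TATAAA in 6.67%. These are matches of letters and do not show binding.

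The FPKM of the members summed to 5.73% of the total in WT set 0 and 8.55% in WT set 1. The mutant libraries had shares of 6.35% and 7.57%, the transgenic ones 5.96% and 7.35%, and those of the double 6.37% and 8.14%. The 4 libraries of set 0 thus lay between 5.73% and 6.37% and the 4 of set 1 between 7.35% and 8.55%, with no overlap between sets and with the genotypes overlapping in each pair. By genotype the mean share of WT was 7.14% ± 2.0, that of Q215X/+ 6.96% ± 0.861, that of HA-NRG1 type III/+ 6.65% ± 0.979 and that of the double 7.26% ± 1.26 (SD, n = 2).

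**Figure D1:**
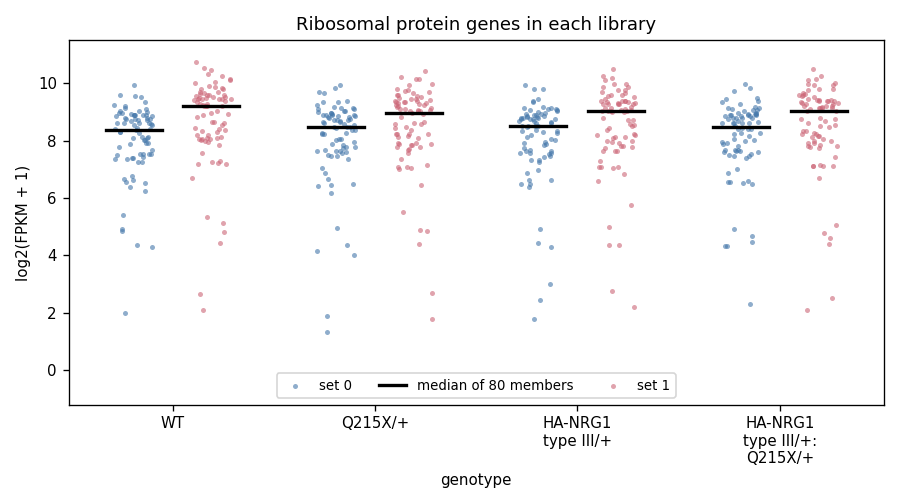
Level of each of the 80 members in each library, as log2(FPKM + 1), by genotype on the horizontal axis. Points are genes, blue for set 0 and red for set 1, and black bars are medians, which lie between 8.39 and 8.50 in set 0 and between 8.96 and 9.21 in set 1.

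Mean levels of single members ran from 4.41 to 1243 FPKM, and 51 of 80 were at 300 FPKM or more. The median was 365 FPKM for the large subunit and 483 for the small. The highest members were Rplp1, an acidic protein of the ribosomal stalk that recruits elongation factors, at 1243 FPKM, Rps12 at 1047, Rpl41 at 1014, Rps29 at 883 and Rps21 at 879. The lowest were Rpl34 at 4.41, Rps27 at 9.90, Rpl7l1 at 19.7, Rpl30 at 22.0 and Rpl26 at 29.6. Rpl7l1 is a relative of Rpl7 (723 FPKM) that works in ribosome assembly. The other 4 low genes encode core ribosomal proteins, and their levels are taken up below with those of their near-identical copies.

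The sciatic nerve label was checked on Prx and Mag, genes of myelinating Schwann cells, which stood between 1194 and 1485 FPKM and between 148 and 193 FPKM in the 8 libraries. For Nrg1 the pairs of values (set 0, then set 1) were 0.204 and 0.164 FPKM for WT, 0.326 and 0.19 for the mutant, 0.393 and 0.312 for the transgene, and 0.498 and 0.358 for the double. The sources used here do not say whether reads of the transgene enter this row. Total FPKM ran from 443733 to 530901 per library. Xist and the Y-linked Ddx3y marked the WT and double libraries as female, those of Q215X/+ as male and, of HA-NRG1 type III/+, set 0 as male and set 1 as female, so that sex and genotype cannot be told apart in Q215X/+ against WT or in the double against Q215X/+. The summed level of 10 skeletal muscle genes was 1230 FPKM in Q215X/+ set 1 and 3.76 to 94.8 in the other libraries. That of 5 red blood cell genes was 599 and 1279 FPKM in Q215X/+ (set 0 and set 1) and 49.1 to 244 in the other libraries. The part of sex, muscle and red blood cells in the results below was not tested beyond the values given.

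The P0 mutant was compared with WT to ask what the mutation does to the nerve's mRNA. No member was called different by limma after Benjamini-Hochberg adjustment over all 12530 genes (threshold 0.05), and over all genes 0.00798% were called. No member had an unadjusted p under 0.05 either (2.04% of all genes did). The median log2 difference of the members, on the log2(FPKM + 1) scale, was −0.07, against −0.01 over all genes tested. Within set 0 it was 0.09, with 55 of 80 members above 0, and within set 1 it was −0.23, with 74 below 0. The direction was higher in set 0 and lower in set 1 for 53 members (3231 of all 12530 genes). Most members thus went opposite ways in the pair of libraries that stand for this genotype. Both Q215X/+ libraries were below both WT libraries for 2 members, Rpl35a and Rps27 (10.2% of all genes), and none had both above (8.78% of all genes). The median was 0.30 without the WT library of set 1 and 0.13 without the Q215X/+ library of set 0. In a whole nerve, fewer cells of a type and less mRNA per cell cannot be told apart.

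Rps27, a zinc-finger protein of the small subunit, had the largest difference, with 41.3 FPKM in WT set 0 but 3.3 in WT set 1, and with 1.49 and 2.43 in the mutant libraries. Only the WT library of set 0 was high here. The log2 difference was −2.21 (SE 1.15, limma adjusted p = 1). Rpl3, which builds the peptidyl transferase region, was at 377 FPKM in WT set 0, 529 in WT set 1, and 333 and 385 in the mutant, a log2 difference of −0.32 (SE 0.245, adjusted p = 1). Its direction was the same in both sets, and the highest Q215X/+ library lay just above the lowest of WT. Rps21, which sits at the surface of the small subunit, was at 608 FPKM in WT set 0, 1415 in WT set 1, and 479 and 1127 in the mutant, a difference of −0.34 (SE 0.656, adjusted p = 1). Rpl22l1, a paralog of Rpl22, was at 70.9 and 163 FPKM against 93.6 and 190 in WT, a difference of −0.31 (SE 0.563, adjusted p = 1). For both genes the sets lay much farther apart than the genotypes. With the set as a replicate block, the SE was 0.953 for Rps27, 0.0862 for Rpl3, 0.0779 for Rps21 and 0.0925 for Rpl22l1. The limma adjusted p was then 0.68, 0.543, 0.485 and 0.579 in that order.

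The transgene was compared with WT to ask what extra neuregulin 1 type III does in a normal nerve. No member was called (0.0638% of all genes), and none had an unadjusted p under 0.05 (6.9% of all genes). The median log2 difference was −0.08 (all genes −0.01), made of 0.05 in set 0, with 55 members above 0, and −0.21 in set 1, with 74 below 0. The direction was again higher in set 0 and lower in set 1 for 52 members (2473 of all 12530 genes). Rps27 was at 2.41 and 3.6 FPKM in HA-NRG1 type III/+, a log2 difference of −1.77 (SE 1.15, adjusted p = 0.97), which also rests on the WT library of set 0. Rpl26 was at 7.06 and 53.7 FPKM against 29.0 and 39.5 in WT, a difference of −0.73 (SE 0.889, adjusted p = 1), and its HA-NRG1 type III/+ libraries lay on either side of those of WT. Rpl35a, a large subunit protein, was at 185 and 197 FPKM against 202 and 258, and thus lower in both transgene libraries (−0.25, SE 0.141, adjusted p = 0.889). With Rpl7l1 it was 1 of 2 members whose libraries did not overlap in that direction (15.7% of all genes), and none did in the other (14.7% of all genes). The median was 0.28 without the WT library of set 1 and 0.17 without the transgenic library of set 0.

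The double was compared with Q215X/+ to ask what the transgene does in the mutant nerve. No member was called (0.0399% of all genes), and none had an unadjusted p under 0.05 (6.58% of all genes). The median log2 difference was 0.04 (all genes −0.01), with 0.02 in set 0 and 0.07 in set 1, and 50 and 65 members above 0. Here the sets differed less in sign, with 40 members higher in both, 5 lower in both and 35 with opposite signs, 10 of these higher in set 0. Of all 12530 genes, 3575 were higher in both sets and 4157 lower in both. The largest difference was that of Rps27, at 21.4 and 3.3 FPKM in the double (1.75, SE 1.15, adjusted p = 1). Rpl28, a large subunit protein, was at 654 (set 0) and 991 FPKM (set 1) in the double, where the mutant had 577 and 825, and thus higher within each set (0.22, SE 0.399, adjusted p = 1). For 3 members, Rps27, Rpl22 and Rpl35a, both double libraries were above both Q215X/+ libraries (14.6% of all genes), and for none below (15.2%). Rpl35a was at 204 and 221 FPKM in the double, where the mutant had 197 and 190, and Rpl22, a large subunit protein, at 91.1 and 103 where the mutant had 86.8 and 87.4. Leaving out the mutant library of set 0 gave a median of −0.16, and leaving out the double library of set 1 gave −0.18.

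The double was also compared with WT, and no member was called (0.112% of all genes), and none had an unadjusted p under 0.05 (7.29% of all genes). The median log2 difference was −0.03 (all genes −0.01; 0.05 when totals left out short RNA and 0.04 with quantile normalization), with 0.11 in set 0, where 62 members were above 0, and −0.16 in set 1, where 76 were below 0. For 60 members the direction was higher in set 0 and lower in set 1 (2362 of all 12530 genes). Only Rpl26 had both double libraries below both WT libraries (1 member; 16.7% of all genes), and none had both above (14.4%). The median was 0.33 without the WT library of set 1 and 0.20 without the double library of set 0. The response to the transgene in the mutant was compared with that in WT by the interaction term, with no member called (0.00798% of all genes), none at an unadjusted p under 0.05 (1.11% of all genes) and a median of 0.13 (all genes 0.0008). That median was −0.25 without the WT library of set 1, −0.12 without the transgenic library of set 0, −0.10 without the mutant library of set 0 and −0.12 without the double library of set 1. The 3 comparisons against WT share its 2 libraries, and all contain the WT libraries of set 0 and set 1, which held the lowest and the highest share of members.

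**Figure D2:**
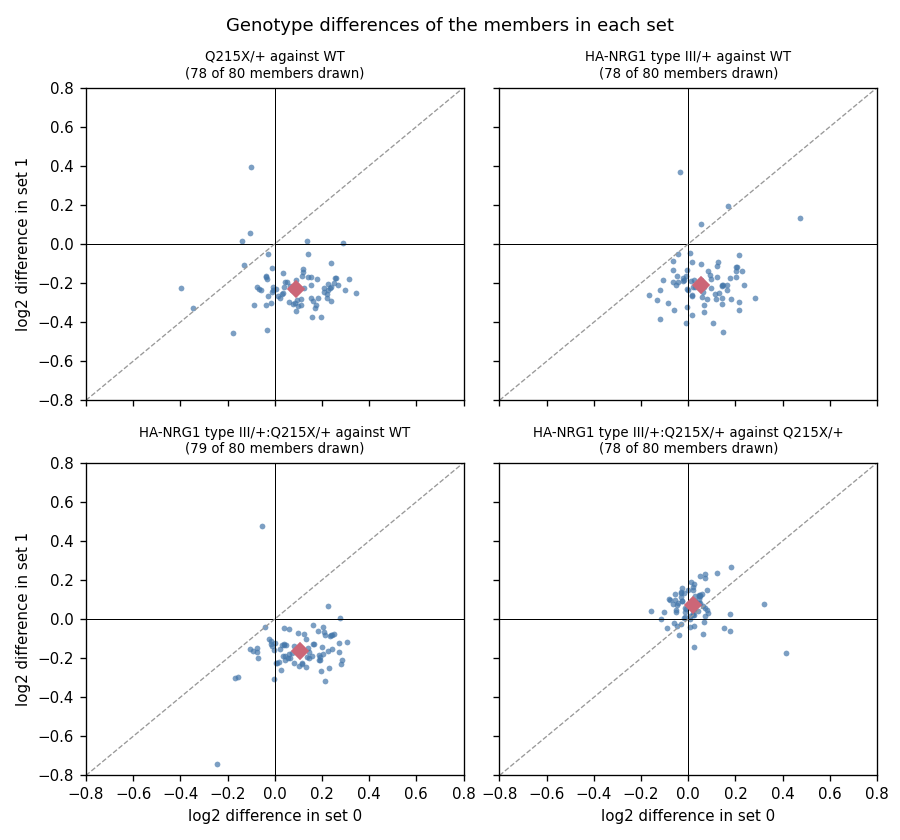
Log2 difference of each member in set 0 (horizontal axis) and in set 1 (vertical axis), 1 panel for each of 4 genotype comparisons; each blue point is a gene, the red diamond is the median of all 80 members and the dashed line marks equal differences. Points beyond 0.8 are not drawn, and in the 3 comparisons against WT the median lies to the right of 0 in set 0 and below 0 in set 1.

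Treating the set as a replicate block narrowed the intervals and called no member in any of the 5 comparisons. The block gave calls for 2.11% of all genes in HA-NRG1 type III/+ against WT, 1.72% in the double against Q215X/+, 2.39% in the double against WT and 0.00798% in Q215X/+ against WT and in the interaction. Members with an unadjusted p under 0.05 then numbered 4 in Q215X/+ against WT (7.41% of all genes), 3 in HA-NRG1 type III/+ against WT (17.5%), 0 in the double against Q215X/+ (15.7%), 2 in the double against WT (17.9%) and 4 in the interaction (4.78%). At the median, the 95% interval of a member reached 0.238 log2 to either side with the block and 0.775 without it. With the block, the whole interval lay within 0.5 log2 of no difference for 75 of 80 members in Q215X/+ against WT, 74 in HA-NRG1 type III/+ against WT, 78 in the double against Q215X/+ and 77 in the double against WT. Without the block these numbers were 7, 5, 7 and 8.

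The sets were then compared directly, with genotype as a term in the fit, a comparison chosen after the values had been seen. Of the 80 members, 66 rose (were higher in set 1) and 1 fell in limma, whereas of all genes tested 22.1% rose, 12.9% fell and thus 35% were called. The median log2 difference was 0.51 for members and 0.03 over all genes. Set 1 was higher than set 0 in 4 of 4 genotypes for 71 members (88.8%), and for 31.5% of all genes. The share was similar for mitochondrial ribosomal protein genes, at 64 of 76 (84.2%). All 4 libraries of set 1 were above all 4 of set 0 for 69 members, and for 20.1% of all genes.

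Among the stalk proteins, Rplp1 was at 991, 979, 988 and 996 FPKM in set 0 for WT, Q215X/+, HA-NRG1 type III/+ and the double, and at 1703, 1383, 1449 and 1456 in set 1. All libraries of set 1 were above all of set 0 (log2 difference 0.59, SE 0.0664, limma adjusted p = 0.00262). Its partner Rplp2 rose by a log2 difference of 0.55 (SE 0.0717, adjusted p = 0.0039), and Rplp0, the scaffold to which both bind, by 0.37 (SE 0.0626, adjusted p = 0.0075, but −0.0675 with quantile normalization). Rpsa, a small subunit protein also known as the laminin receptor, was at 184, 199, 201 and 194 FPKM in set 0 and 330, 299, 278 and 283 in set 1, in the same order of genotypes, again without overlap (0.61, SE 0.0685, adjusted p = 0.00266).

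The largest rises among called members were in Rps21, Rps14, Rpl22l1, Rps23 and Rpl35. Rps21 was at 608, 479, 555 and 541 FPKM in set 0 and at 1415, 1127, 1159 and 1147 in set 1, a log2 difference of 1.15 (SE 0.0551, adjusted p = 0.000544). Every library of set 1 was far above the highest of set 0, while the genotypes within a set lay close together. The differences were 1.04 (SE 0.0544) for Rps14, 0.99 (SE 0.0654) for Rpl22l1, 0.94 (SE 0.0582) for Rps23, which forms part of the decoding centre, and 0.89 (SE 0.0724) for Rpl35, with adjusted p from 0.000565 to 0.00144. Rps27a, made as a fusion with ubiquitin, rose by 0.82 (SE 0.0516). Rps27l, the paralog of Rps27, rose by 0.55 (SE 0.0918, adjusted p = 0.0075).

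Rpl39, an X-linked gene for a small protein of the exit tunnel, was the 1 member that fell. It was at 335, 356, 363 and 388 FPKM in set 0 and at 294, 238, 242 and 281 in set 1, so that all of set 1 lay below all of set 0 (−0.45, SE 0.075, adjusted p = 0.00727). The other X-linked members were Rpl10, with a difference of 0.68 (SE 0.0535, adjusted p = 0.00132), Rps4x, with 0.37 (SE 0.0678, adjusted p = 0.00979, but −0.067 with quantile normalization), and Rpl36a, with 0.27 (SE 0.0937, adjusted p = 0.0662).

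The 13 members that were not called were Rpl5, Rpl7l1, Rpl22, Rpl23, Rpl26, Rpl27a, Rpl35a, Rpl36a, Rpl37a, Rps7, Rps15a, Rps19 and Rps27. Rpl7l1 was nearly level, at 18.8 to 19.7 FPKM in set 0 and 19.4 to 20.7 in set 1 (0.06, SE 0.0339, adjusted p = 0.244), whereas Rpl7 rose by 0.56 (SE 0.084, adjusted p = 0.0056). Rpl22 had a difference of 0.21 (SE 0.0707, adjusted p = 0.0599), below that of its paralog Rpl22l1, and the difference between them was not tested. Rps19, the gene most often mutated in Diamond-Blackfan anaemia, was at 243, 227, 238 and 234.6 FPKM in set 0 and at 229, 301, 295 and 319 in set 1. The WT library alone did not follow in set 1, and without either WT library Rps19 was called, with a log2 difference of 0.39.

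**Figure D3:**
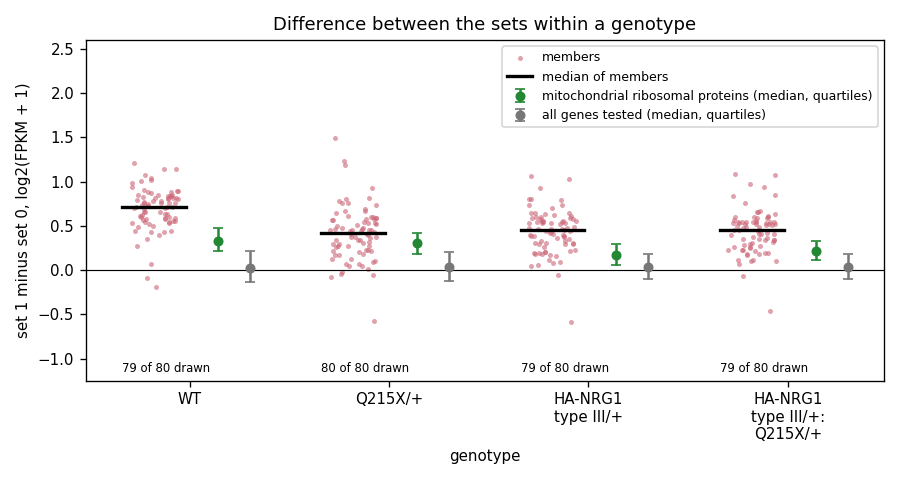
Difference between set 1 and set 0 on the log2(FPKM + 1) scale within each genotype. Red points are the members, the black bar is their median, and the green and grey points with bars give the median and quartiles of 76 mitochondrial ribosomal protein genes and of all 12530 genes tested; members beyond the axis are counted under each group. The member medians are 0.72 in WT and 0.42 to 0.46 in the other genotypes, all above those of all genes, near 0.03.

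The difference between sets was not equal across genotypes. Its median over the members was 0.72 for WT, 0.42 for the mutant, 0.46 for the transgene and 0.45 for the double, while the medians over all genes were all 0.03. WT had the largest of the 4 differences in 69 members (86.2%), and in 27.4% of all genes. The same held for 13 of 16 known TOP mRNAs that encode no ribosomal protein (81.2%). It held for 3 of 4 ribosomal protein genes outside the symbol rule and 38 of 76 mitochondrial ones (50%). With 1 library for each genotype and set, this unevenness rests on single libraries and is given as a description. The set accounted for a median of 89.0% of a member's variance over the libraries and genotype for 2.73%, against 37.4% and 31.3% over all genes.

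The share of short RNA and the sums of some marker lists moved with the set. In every genotype the summed level of 8 fibroblast genes was lower in set 1 (5774 to 7106 FPKM) than in set 0 of that genotype (6320 to 7358), although 4 of the 8 genes were higher in set 1 in all 4 genotypes. The sums of 8 endothelial cell genes (123 to 163 FPKM in set 0, 155 to 188 in set 1) and of 11 macrophage genes (386 to 446 and 415 to 507) were higher in set 1 in every genotype. Of the 8 endothelial genes, however, only 2 were higher in set 1 in all 4 genotypes, and 1 was lower in all 4. Of the 11 macrophage genes 6 were higher and 1 lower in this way. Of 10 genes of myelinating Schwann cells 4 were higher and 5 lower in set 1 in all 4 genotypes. The part of these cell types in the difference between sets was not tested. Short RNA genes (microRNA, snoRNA and the like) took 1.83% to 4.80% of the total FPKM in set 0 and 5.5% to 10.45% in set 1. The median member difference fell to 0.39 when the total was taken without short RNA and mitochondrial genes, with all genes at −0.07, and 59 members were then called. It was 0.47 with median ratio scaling (63 called) and 0.19 with quantile normalization (36 called). Under quantile normalization Rplp0, Rpl4, Rpl19, Rpl23a, Rps4x and Rps28 were lower in set 1, none of them called. The part of short RNA and of the scaling in the difference was not tested further.

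Transcript length moved with the set as well. The members' transcripts in GENCODE M21 had a median length of 705 bases. A single transcript was taken for each gene, by the annotation's principal rank, then the longest coding part, then the shortest length. Whether the nerve expressed that transcript was not tested, and Rps20 was given a transcript of 3706 bases with a coding part of 357. The length classes depend on this choice. They hold only genes with a protein-coding transcript length, 11466 of the 12530 tested (91.5%), with all 80 members among them. The set difference was taken as the mean of the 4 genotypes. Over the other genes in these classes its median was 0.46 for transcripts under 600 bases and 0.31 from 600 to under 1000. It was 0.16 from there to under 2000, 0.02 from there to under 4000 and −0.075 for 4000 and over. Members in the first 3 of these classes had medians of 0.50 (30 genes), 0.56 (32 genes) and 0.43 (16 genes). The 2 members of 2000 bases and over, Rps20 and Rpl5, had a median of 0.33. Members thus lay near other genes of the same length among the shortest transcripts and above them in the longer classes, as a description with no test. At 300 FPKM and over, with transcripts under 1000 bases, 41 members had a median of 0.58 and 39 other genes 0.44.

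**Figure D4:**
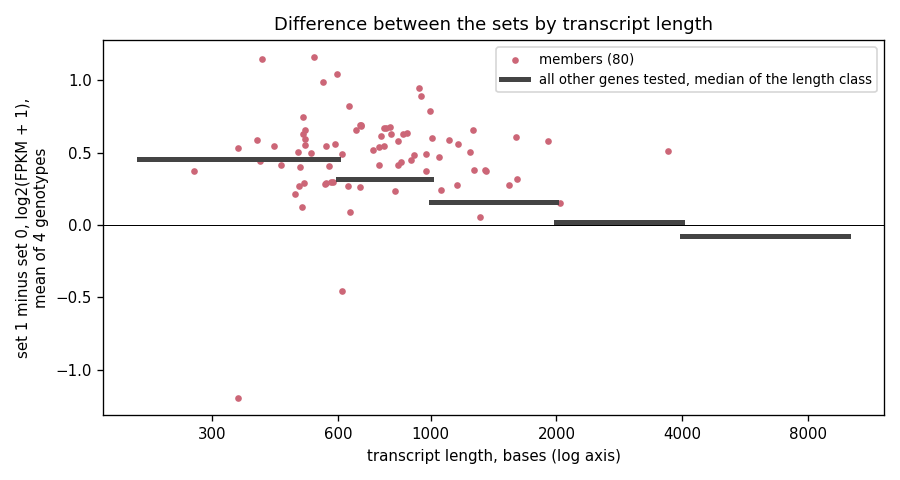
Set difference of each member (mean of 4 genotypes, log2 scale) against the length of its transcript on a log axis. Red points are the 80 members. Dark bars are the medians, in 5 length classes, of the other genes tested that had a protein-coding transcript length. These medians fall from 0.46 under 600 bases to −0.075 at 4000 bases and over. The first and last class are drawn to a fixed end.

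Of 4 ribosomal protein genes whose names fall outside the symbol rule, all 4 rose, with a median of 0.80, above that of the members. Among them, Fau, made as a fusion with a ubiquitin-like protein, rose by 0.89 (SE 0.0559) and Rpl36al by 0.71 (SE 0.0508). Gnb2l1, which encodes the scaffold RACK1, rose by 0.38 (SE 0.0547). The other lists of translation genes had smaller medians than the members, beside 22.1% of all genes that rose and 12.9% that fell. Of 76 mitochondrial ribosomal protein genes, which serve a separate ribosome, 58 rose and 0 fell, with a median of 0.25. Of 37 initiation factors 13 rose and 4 fell (median 0.04), with Eif4a2 at 0.55 (SE 0.0405) and Eif3b, which fell by 0.24 (SE 0.0431). Of 12 elongation and termination factors 3 rose and 2 fell (median 0.07).

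Genes known to carry a TOP tract without encoding a ribosomal protein moved less than the members, with 4 of 16 that rose, none that fell and a median of 0.08. The 4 were Tpt1 (0.46, SE 0.0917), Eef1b2, which loads the elongation factor with GTP (0.36, SE 0.0549), Snhg1 (0.26, SE 0.0724) and Eif3e (0.24, SE 0.0646). Whether they differ from the members was not tested. Of 40 ribosome biogenesis factors 8 rose and 5 fell (median −0.03), of 14 genes of RNA polymerase I, which makes the ribosomal RNA precursor, 5 rose and 3 fell (median 0.06), and of 24 genes of mTORC1 and Myc control 5 rose and 5 fell (median −0.03). Over all genes tested 22.1% rose and 12.9% fell, and no list was tested against these shares. In the last list Mycn rose by 0.45 (SE 0.0808), Maf1, a repressor of RNA polymerase III, rose by 0.39 (SE 0.0482), Myc fell by 0.35 (SE 0.0593) and Larp1 fell by 0.24 (SE 0.0494).

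Between genotypes, none of these lists held a called gene without the block. With the block Nop14, a factor of small subunit assembly, rose in HA-NRG1 type III/+ against WT (0.35, SE 0.0522, limma adjusted p = 0.0367) and in the double against WT (0.33, SE 0.0522, adjusted p = 0.0393). Rps6ka2, which encodes the kinase RSK3, fell in the double against Q215X/+ (−0.45, SE 0.0562, adjusted p = 0.0276) and against WT (−0.35, SE 0.0562, adjusted p = 0.0415). Mrps12, of the mitochondrial small subunit, fell in the same 2 comparisons (−0.40 and −0.42, SE 0.0641, adjusted p = 0.0454 and 0.035), and Mycn rose in the double against WT (0.71, SE 0.114, adjusted p = 0.0416). These 2 comparisons share the double libraries. Over all genes the block called 2.11% in HA-NRG1 type III/+ against WT, 1.72% in the double against Q215X/+ and 2.39% in the double against WT. The calls named here are single genes and are not read as a response of the lists.

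Low values of 4 core members stood beside high values of near-identical copies elsewhere in the genome. A search of 13607 pseudogene transcripts found at least 1 copy with 95% identity for 75 of the 80 members, and a median of 5 copies per member. Windows of 60 coding bases from GENCODE M21 (GRCm38) are shown for a member and its copy, with differing bases in capitals, because reads from such stretches can be given to either gene.
Rpl26: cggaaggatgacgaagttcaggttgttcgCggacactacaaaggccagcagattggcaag
Gm15772: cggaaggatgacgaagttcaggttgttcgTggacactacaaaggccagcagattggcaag
Rpl30: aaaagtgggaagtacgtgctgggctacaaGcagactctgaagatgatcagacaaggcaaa
Gm12191: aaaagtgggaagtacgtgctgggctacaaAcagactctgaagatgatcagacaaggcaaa
Rpl34: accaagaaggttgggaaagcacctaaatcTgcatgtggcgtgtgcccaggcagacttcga
Rpl34-ps1: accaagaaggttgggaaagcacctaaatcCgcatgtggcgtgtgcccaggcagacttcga

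Gm15772 is a processed pseudogene at chr5:3236431-3236868 and differed from Rpl26 at 2 of 435 coding bases. Gm12191, at chr11:49678710-49679057, differed from Rpl30 at 1 of 345 bases, and Rpl34-ps1, at chr6:71124610-71124963, from Rpl34 at 2 of 351. The copy of Rps27, listed as Gm9846 in the table and as Rps27rt in the annotation, lies at chr9:114982366-114982739, is annotated as protein-coding and was identical over all 252 coding bases. The mean level of the copy was 652 FPKM for Rpl26, 344 for Rpl30, 440 for Rpl34 and 1107 for Rps27, so each copy stood far above its member. The Rps27 row held between 0.185% and 5.49% of the sum with its copy, the Rpl34 row 0.815% to 1.41%, the Rpl30 row 4.94% to 7.47% and the Rpl26 row 1.34% to 6.55%.

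With the copy added, a calculation chosen after the values had been seen, the sums for Rps27 and Rpl26 differed less between genotypes than their rows did. Sums were not closer for every member: the log2 difference in Q215X/+ against WT went from −0.06 to −0.14 for Rpl30 and from −0.02 to −0.13 for Rpl34. The sum for Rps27 was 753, 809, 802 and 821 FPKM in set 0 (WT, Q215X/+, HA-NRG1 type III/+ and the double) and 1635, 1266, 1390 and 1460 in set 1. Its log2 difference in Q215X/+ against WT was then −0.13 (SE 0.502, limma adjusted p = 1), in place of −2.21 for its row alone. The 41.3 and 21.4 FPKM of the Rps27 row in the set 0 libraries of WT and the double were a small part of these sums. Between the sets the sums rose, by 0.85 for Rps27 (SE 0.0842, adjusted p = 0.00207) and 0.67 for Rpl26 (SE 0.0866, adjusted p = 0.00363), where the rows alone gave −1.2 (SE 0.674, adjusted p = 0.211) and 1.16 (SE 0.437, adjusted p = 0.085). The sources used here do not say how the authors' counting split reads between these genes, so levels of the 4 rows are uncertain.

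**Figure D5:**
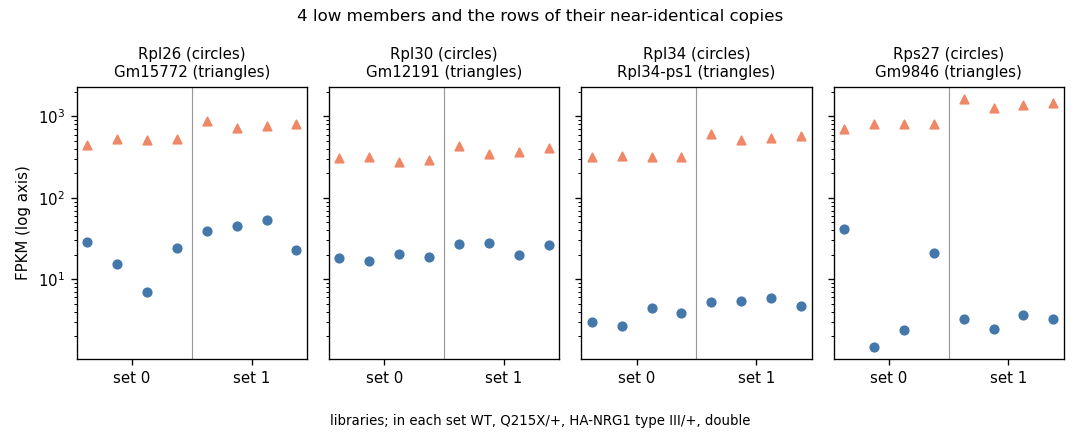
FPKM, on a log axis, of 4 low members (blue circles) and of the row of a near-identical copy (orange triangles) in the 8 libraries. Within each set the libraries are WT, Q215X/+, HA-NRG1 type III/+ and the double from left to right, and in all 4 panels the copy lies above the member in every library.

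Introns of the members also carry small nucleolar RNAs, which guide modification of ribosomal RNA. GENCODE M21 places 59 such RNAs within the bounds of 30 members, with Snora78 on the strand opposite to Rps2. Whether each lies in an intron was not checked. Of the 59, 34 were rows of the table. Of these, 20 were listed at 0 in all 8 libraries and 11 had a mean of at least 1 FPKM. Snord4a, inside Rpl23a, was at 883 FPKM in 1 library and listed at 0 in the other 7. The host rows were above 0 in every library.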

How the data were processed

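The data were 1 deposited table of FPKM values, computed by the authors, with 8 libraries of poly(A)-selected sciatic nerve RNA. The submitters' processing notes name TopHat2 2.0.9, Cufflinks 2.2.0 and build mm10. The sources used here give no roles for these tools, no annotation, no strand handling and no filter. The header lacks 1 field that each line holds, and each column was given its genotype by the start of its name, the abbreviated transgene name by exclusion. FPKM carries no counts, so the depth cannot be read from it and no counting interval was computed. Steps of low values gave relative depths of 0.727 to 1.09 (WT set 0 as 1), less firmly across sets.

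Values were taken as log2(FPKM + 1), genes with mean FPKM under 1 were left out, and limma 3.58.1 (R 4.3.3, with trend) was fitted to all 8 libraries with genotype means, with 4 residual degrees of freedom, or 3 with the set as a replicate block. An exact permutation test of 2 against 2 libraries cannot go below 0.333 (two-sided). The pairing was checked first: across genes, set differences correlated at 0.118 to 0.304 in all 6 pairs of genotypes. The sets were therefore treated as paired in the fit with the block. The SE and adjusted p given for members between genotypes come from the unpaired fit unless the block is named. No label gives this pairing.

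On simulated data with 12530 genes, the fit of Q215X/+ against WT called 56% of 50 genes changed by a log2 of 0.5 and 94% of those changed by 1, and the fit of the sets 72% and 98%. For Q215X/+ against WT the fit had no block, and no difference between the sets was simulated. Its shares therefore cannot be carried over to genes that differ between the sets, as most members did. Copies were searched with blastn 2.17.0 at 95% identity over 90% of the coding sequence.

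Members and lists were chosen with earlier results of these data known. Named genes were those called, the 5 largest differences each way, the 5 highest and lowest, paralogs with their parents, stalk proteins and Rpsa, and the called or 3 largest genes of each list; the text gives those that matter most, and Rps19, Rpl35a, Rps27a and the snoRNAs were chosen after their values were seen. Alternatives covered the pseudocount (0.1, 5), the filter (none, 5), scaling, trend, sex, the block and leaving out each library.

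Values of some genes are not reported here.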

Additional observations from a re-analysis of the deposited data

Results flagged for a closer look

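WT stood apart in the difference between sets. The median of the members was 0.72 there and 0.42 to 0.46 in the other 3 genotypes, a gap larger than the range of 4 values usually allows by Dixon's test. Each of the 4 values is a difference between single libraries, and the gap restates that WT held both the lowest and the highest share of the members, so it supports nothing further. That test, made here on 5 groups of 4 values, flags about 1 group in 20 by chance. Over single members, 14 of 160 sets of 4 libraries had a library apart by the same test.

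The genotype differences against WT had opposite signs in the sets. The median of the members was 0.0908 in set 0 and −0.23 in set 1 for Q215X/+, 0.0544 and −0.21 for HA-NRG1 type III/+, and 0.11 and −0.16 for the double. The difference between sets was not tested, since each set holds 1 library of a genotype, and the 3 pairs share the WT libraries.

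Outside the members, Rpl3l, the paralog of Rpl3 found in striated muscle, was at 1.48 FPKM in Q215X/+ set 1 and at 0.34 or lower in the other libraries. That library also held the highest sum of skeletal muscle genes (1230 FPKM). Rpl39l was at 0.278 FPKM in the same library, where WT reached 0.0668, but it was also at 0.181 in Q215X/+ set 0, 0.213 in HA-NRG1 type III/+ set 0 and 0.18 and 0.155 in the double.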

How the results depend on the processing

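The count of called members between genotypes was 0 under every alternative run (22 for each comparison, 21 for the interaction). With the replicate block it stayed 0 in all 5, and the medians were the same by construction (−0.07, −0.08, 0.04, −0.03 and 0.13 in the order of the report); the block ended no call of a member. The medians moved with a term for sex, to 0.38 in Q215X/+ against WT, −0.41 in the double against Q215X/+ and −0.59 in the interaction. By construction that term is estimated from the HA-NRG1 type III/+ libraries, which differ in set as well, and with the block added the medians were −0.13, 0.11 and 0.21.

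Leaving out 1 library at a time moved the medians from −0.44 to 0.30 in Q215X/+ against WT, −0.44 to 0.28 in HA-NRG1 type III/+ against WT, −0.18 to 0.27 in the double against Q215X/+, −0.39 to 0.33 in the double against WT and −0.25 to 0.49 in the interaction. With 1 library left out the sets are unbalanced, and the cause of the sign changes was not tested. In comparisons with WT the extremes came without its set 0 and set 1 libraries. The double against WT was also above 0 when totals left out short RNA (0.05) and with quantile normalization (0.04).

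Between the sets, the 67 calls became 38 without a filter on low values and 36 with quantile normalization, and 54 to 66 without 1 library, with medians of 0.45 to 0.55. The cause was not tested. Under quantile normalization Rplp0 was at −0.0675, Rpl19 at −0.0212, Rpl23a at −0.15, Rpl4 at −0.13, Rps28 at −0.0328 and Rps4x at −0.067. Of 1569 values of single members under an alternative, 1387 kept their direction and side of the threshold. With 2 libraries a genotype, differences under about 0.24 log2 lie within the usual interval even with the block.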
